A study of Homo sapiens with 4 samples.

Results

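The integrated stress response regulators described here are 10 genes: the transcription factor genes ATF4, DDIT3, ATF3, CEBPB and NUPR1, the feedback genes TRIB3 and PPP1R15A, and the effector genes CHAC1, SESN2 and DDIT4. They were taken by name. Every row whose transcript identifier maps to one of these genes in GENCODE v29 was used, which gave 32 transcripts, and the values were summed over the 10 genes of 22017 in all. All 10 genes passed the filter on low values that left 16523 genes to be tested.

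The cells were U87, a long-established line grown from a human glioblastoma, and poly(A)-selected RNA was collected 48 h after lipid transfection with 50 nM of an oligonucleotide. That oligonucleotide was a tRF-3009a mimic in 2 libraries, tRF-3009a being a short RNA cut from a tRNA, and in 2 libraries it was the control ssGL2, which is single-stranded and directed at luciferase. Each group has a library numbered 2 and a library numbered 1, called mimic 2, control 2, mimic 1 and control 1 below. The number is the replicate number of the sample titles; the labels do not say what libraries with the same number share, nor whether the cultures were separate, so the p-values reflect the spread among these libraries, which may be technical. More than one amount of input RNA is named in the labels, without saying which library had which. Untransfected cells were not analysed here, so every library carries a transfected oligonucleotide.

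The integrated stress response is a shared pathway in which several kinases phosphorylate the translation factor eIF2 alpha when amino acids, haem or protein folding capacity run short, or when double-stranded RNA appears. General translation then falls while the ATF4 messenger RNA, which carries upstream reading frames, is translated more. ATF4 protein is a basic leucine zipper factor that switches on genes for amino acid supply and a set of further regulators, among them those described here. RNA measurements do not show ATF4 protein or eIF2 alpha phosphorylation. Bulk RNA from a single line also cannot tell fewer cells with a transcript from less of it per cell.

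Established promoters of this pathway hold short elements to which these factors bind, so the promoter stretches with such an element at the start of a gene's leading transcript are shown. RefSeq promoter windows, from 250 bases before to 50 after the annotated start (GRCh38.p14), were found for 9 of the 10 genes, in 15 windows. NUPR1 had none. Windows were searched on both strands for a C/EBP-ATF response element (TGATGNAA), for a cyclic AMP response element (TGACGTCA) and for the endoplasmic reticulum stress element ERSE, motifs that do not overlap in the matches found. The capitals mark the match, which in CHAC1 is on the reverse strand, and the sequences are RefSeq's.
CHAC1, chr15:40953221-40953289, plus strand: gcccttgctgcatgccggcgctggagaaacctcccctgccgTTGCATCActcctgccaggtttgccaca
PPP1R15A, chr19:48872303-48872390, plus strand: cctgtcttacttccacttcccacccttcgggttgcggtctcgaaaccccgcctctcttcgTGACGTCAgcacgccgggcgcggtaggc
The CHAC1 element lies at -209 to -202 from the RefSeq start, counted in bases, and the PPP1R15A element at -58 to -51. The leading transcript PPP1R15A-201 starts 29 bases before that RefSeq start, so the element is nearer to its start. Among all promoter windows of this length, 3.62% hold TGATGNAA and 1.85% hold TGACGTCA, while ERSE was found in 0.0769% of them and in 0 of the 9 genes searched. ATF3 also holds TGATGNAA in a window, but the RefSeq start of that window is at -43263 bases from the start of its leading transcript. The RefSeq starts of the TRIB3 windows lie 678 to 726 bases after the start of its leading transcript. Only full matches were counted, so near matches are left out, such as a stretch in the DDIT3 windows that differs from ERSE in its last letter. Matches are descriptions of these letters in these windows and say nothing of whether a factor binds there.

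The libraries stood apart more by number than by treatment. Among 16523 genes, 3504 differed more than 2-fold between mimic 2 and mimic 1, and 3434 between control 2 and control 1. Fewer did so by treatment, 633 between mimic 2 and control 2 and 741 between mimic 1 and control 1. The regulators followed this split. All 10 were higher in number 2, in the mimic and in the control alike. None was called different between the mimic and the control, but that fit had no term for the number. Its standard errors ran from 0.51 for CEBPB to 2.50 for CHAC1, so it could not have resolved small changes. The smallest ratio of number 2 over number 1 was that of CEBPB, 2.03 in the mimic and 1.94 in the control, and the largest that of CHAC1, 44.3 in the mimic and 28.8 in the control. The 10 genes together made up 0.347% of the normalised reads of mimic 2 and 0.331% of control 2, against 0.0671% of mimic 1 and 0.0719% of control 1.

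**Figure D1:**
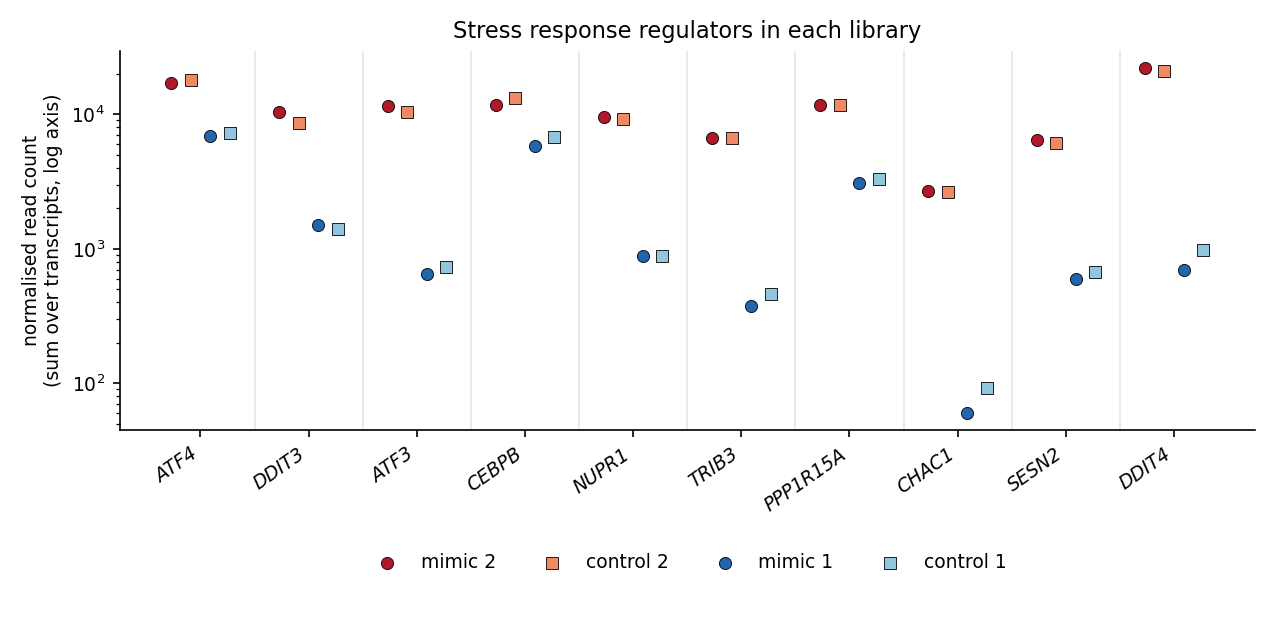
Normalised read count of each regulator, summed over its transcripts, on a log axis, with 1 point per library: red and orange for number 2, dark and light blue for number 1, circles for the mimic and squares for the control. For every gene both number 2 points lie above both number 1 points, from CEBPB, where mimic 2 has 11715 and control 1 has 6756, to CHAC1, where control 2 has 2633 and control 1 has 91.5.

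Values below are normalised read counts, the authors' reads per transcript divided by a factor for each library, summed over a gene. Differences are on the scale of log2(value + 1), as number 2 minus number 1 or as mimic minus control, with the standard error and the adjusted p from limma over all 16523 genes (2 libraries per side). Whole reads recovered from these values came to 28860788 to 33848402 per library.

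The transcription factor genes come first. ATF4 (chromosome 22, 39519695 to 39522685, GRCh38), the central factor of the pathway, had 17049.8 in mimic 2 and 17967 in control 2, against 6836 in mimic 1 and 7289 in control 1. The number 2 libraries were both high and did not overlap with number 1, at 1.31 ± 0.08 on the log2 scale (adjusted p = 2.17e-06). DDIT3 (chromosome 12, 57516588 to 57521737), which encodes CHOP, a factor linked to cell death under unresolved stress, had 10308 in mimic 2 and 8575 in control 2, against 1496 in mimic 1 and 1412 in control 1. Its difference between numbers was 2.69 ± 0.10 (adjusted p = 1.90e-07). Of the 10 genes DDIT3 was the one with the largest positive difference between mimic and control in number 2, at 0.27. It shares its locus with MARS, the methionyl-tRNA synthetase gene on the opposite strand, which had 14190.2 in mimic 2 and 14007 in control 2, against 3610 in mimic 1 and 3708 in control 1. How strand was treated in the counting is not given in the sources used here, so reads of overlapping genes may have been exchanged.

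ATF3 (chromosome 1, 212565334 to 212620777), a stress-induced factor of the same family that mostly represses, had 11546 in mimic 2 and 10443 in control 2, against 654 in mimic 1 and 736 in control 1. The difference was 3.98 ± 0.09 (adjusted p = 2.79e-08), which ranked 81 of all genes tested, counted from the most raised. NUPR1 (chromosome 16, 28532708 to 28539174), a small stress-induced chromatin protein, had 9608 in mimic 2 and 9149.7 in control 2, against 883 in mimic 1 and 883 in control 1. The libraries of a number were close to each other, and the difference was 3.41 ± 0.08 (adjusted p = 2.79e-08). CEBPB (chromosome 20, 50190734 to 50192689), a C/EBP factor that can pair with ATF4 and also serves inflammatory signalling, had the smallest difference of the 10. It was at 11715 in mimic 2 and 13139 in control 2, against 5764 in mimic 1 and 6756 in control 1, with a difference of 0.99 ± 0.10 (adjusted p = 4.60e-05). Its rank was 1581 of all genes tested.

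The feedback genes were both higher in number 2. PPP1R15A (chromosome 19, 48872392 to 48876057), which encodes GADD34, the inducible subunit that directs a phosphatase to eIF2 alpha and so ends the response, had 11761 in mimic 2 and 11638 in control 2, against 3107 in mimic 1 and 3300.3 in control 1. This is 1.87 ± 0.08 (adjusted p = 2.84e-07). TRIB3 (chromosome 20, 362835 to 397559), a pseudokinase that binds ATF4 and CHOP and holds them back, had 6636 in mimic 2 and 6684 in control 2, against 373 in mimic 1 and 465 in control 1. The number 2 libraries were nearly level, and the difference was 4.0 ± 0.11 (adjusted p = 4.88e-08).

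The effector genes were all higher in number 2, and CHAC1 and DDIT4 had the largest differences of the 10. CHAC1 (chromosome 15, 40952962 to 40956519), an enzyme that breaks down glutathione, had 2671 in mimic 2 and 2633 in control 2, against 60.3 in mimic 1 and 91.5 in control 1. The number 2 libraries were level and far above number 1, and the difference of 5.14 ± 0.18 (adjusted p = 1.43e-07) ranked 28 of all genes tested. The value of mimic 1 rests on 67 recovered reads (exact Poisson 95% interval 51.9 to 85.1) and that of control 1 on 88 (70.6 to 108.4). These intervals overlap, but they cover counting error only. They are in reads not adjusted for depth, which was 33848402 in mimic 1 and 30153387 in control 1. DDIT4 (chromosome 10, 72273920 to 72276036), which encodes REDD1, an inhibitor of the growth kinase complex mTORC1, had 22082 in mimic 2 and 20904 in control 2, against 701 in mimic 1 and 971 in control 1. Mimic 1 was the lowest library, and number 2 did not overlap with number 1, with a difference of 4.70 ± 0.13 (adjusted p = 5.75e-08). The same counting intervals for DDIT4, 724.3 to 834.6 reads in mimic 1 and 874.1 to 994.8 in control 1, do not overlap. SESN2 (chromosome 1, 28259527 to 28282491), a leucine sensor that also restrains mTORC1, had 6389.8 in mimic 2 and 6078 in control 2, against 601 in mimic 1 and 675 in control 1, at 3.29 ± 0.09 (adjusted p = 4.88e-08).

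With limma, 10 of 10 regulators were called higher in number 2 at an adjusted p under 0.05, where 26.0% of the 16523 genes were. In all 10 genes the number 2 libraries lay above the number 1 libraries without overlap, as did 38.5% of all genes tested. More than 2-fold higher in number 2, in the mimic and in the control, were 9 of the 10 regulators and 6.80% of all genes. The median difference was 3.35 over the 10 and 0.0078 over all genes. Calls in this comparison are common, since 8298 genes differed in either direction, 5160 without mimic 2 and 5420 without control 2, so the share of regulators called says less than the size of their differences. All 10 calls held in each of these fits. In the test the mimic and control libraries of a number stand as its 2 replicates.

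**Figure D2:**
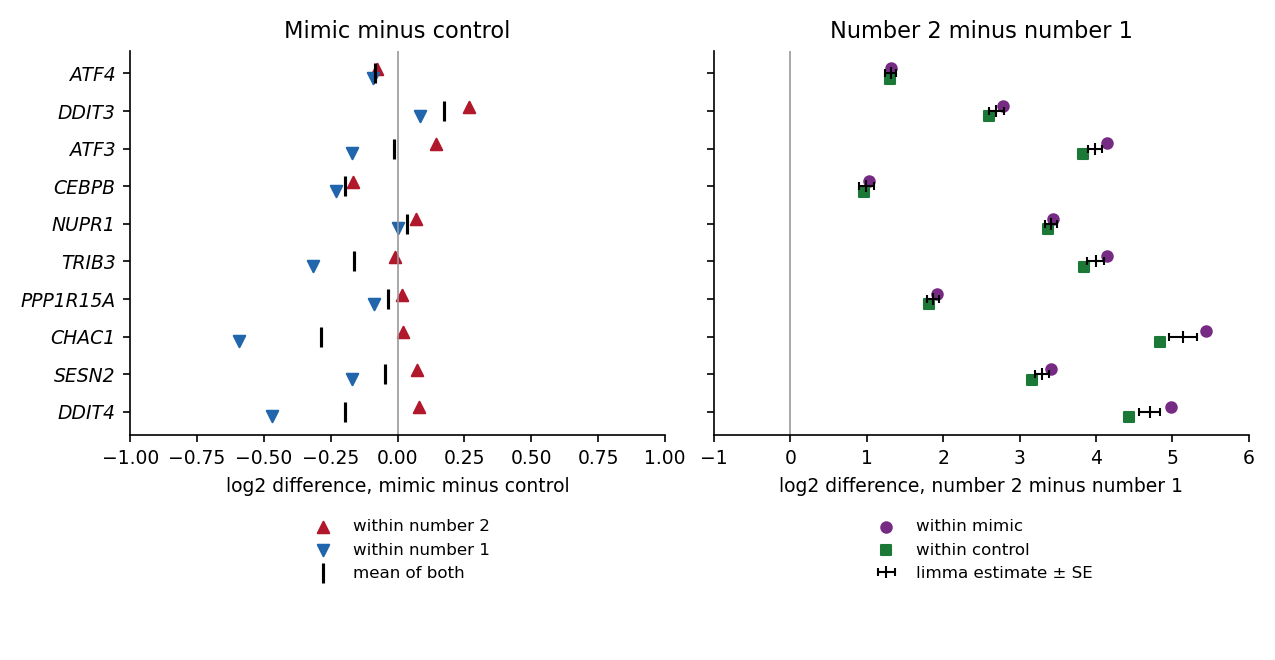
Log2 differences of each regulator. Left, mimic minus control within number 2 (red triangles) and within number 1 (blue triangles), with their mean as a black tick; right, number 2 minus number 1 within the mimic (purple circles) and within the control (green squares), with the limma estimate ± SE in black. The left values lie between -0.59 and 0.27, while the right values lie between 0.96 and 5.45.

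Mimic against control addresses whether tRF-3009a alters these RNAs. With limma and no term for the number, 0 of the 10 regulators were called, as were 0.0% of all genes, and every adjusted p was 1.00. At an unadjusted p under 0.05 there were 26 genes with limma, 35 with edgeR and 23 with DESeq2, the last pair on recovered reads and with 0 calls each, and in these fits without a term for the number no regulator was among them, the smallest unadjusted limma p being 0.718 for CEBPB. In every regulator the mimic and control groups overlapped, because each group holds a number 2 library and a number 1 library. The standard errors ran from 0.51 for CEBPB to 2.50 for CHAC1, so this test could not have resolved small changes. When counts were simulated with the gap between numbers seen here, 0 of 100 genes given a 4-fold change were called by this test, whereas all 100 were called when the gap was left out.

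Set against each other within a number, mimic and control lay close. Among the factors, ATF4 differed by -0.08 in number 2 and -0.09 in number 1, and CEBPB by -0.17 in number 2 and -0.23 in number 1, so these 2 were lower in the mimic in both. DDIT3 was higher in the mimic in both, by 0.27 in number 2 and 0.08 in number 1. NUPR1 differed by 0.07 in number 2 and 0.00086 in number 1.

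The effectors and TRIB3 differed more in number 1, where they are low. CHAC1 was at 0.02 in number 2 and -0.59 in number 1, DDIT4 at 0.08 in number 2 and -0.47 in number 1, and TRIB3 at -0.01 in number 2 and -0.31 in number 1. SESN2 was at 0.07 in number 2 and -0.17 in number 1, ATF3 at 0.14 in number 2 and -0.17 in number 1, and PPP1R15A at 0.02 in number 2 and -0.09 in number 1. Lower in mimic 1 than in control 1 were 8 of the 10 regulators, where 50.6% of all genes were, and higher in mimic 2 than in control 2 were 7 of the 10, where 45.2% of all genes were. With 1 library per treatment in each number, no test of these differences or of their change between numbers was made. Averaged over both numbers, mimic minus control was -0.29 for CHAC1, -0.20 for CEBPB, -0.20 for DDIT4, -0.16 for TRIB3 and 0.17 for DDIT3, and the other 5 lay between -0.08 and 0.04. These averages follow the balance of numbers: without mimic 2 they ran from -3.01 to -0.71 and without control 1 from -2.70 to -0.68, all below 0, while without control 2 they ran from 0.28 to 2.13 and without mimic 1 from 0.31 to 2.44, all above 0. Each such fit compares groups with unequal shares of the 2 numbers.

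Levels of different genes can be compared only per transcript length. For this, each transcript's value was divided by its annotated length, summed over a gene and scaled to the same total in every library. On this scale ATF4 was at 740.1 in mimic 2 and 763 in control 2, against 304 in mimic 1 and 311 in control 1, and it was the highest of the 10 in all libraries except mimic 2. DDIT4, at 804 in mimic 2 and 743 in control 2, stood beside ATF4 there, while at 26.7 in mimic 1 and 35.8 in control 1 it was far below it. The order of DDIT4 and ATF4 in number 2 was not the same in both libraries.

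The third place was held by DDIT3 in number 2, at 704 in mimic 2 and 573 in control 2. In number 1 it held the same place, at 106 in mimic 1 and 96.0 in control 1, below CEBPB at 190.2 in mimic 1 and 214 in control 1. NUPR1, ATF3 and CEBPB lay between 344 and 412 in the number 2 libraries, and their order differed between mimic 2 and control 2. CHAC1, at 108 in mimic 2 and 107 in control 2, was level with SESN2, at 115 in mimic 2 and 107 in control 2. In number 1 CHAC1 was last, at 2.49 in mimic 1 and 3.73 in control 1. Among all 22017 genes by level per length, CHAC1 ranked 1619 in mimic 2 and 1631 in control 2, against 12239 in mimic 1 and 11254 in control 1.

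**Figure D3:**
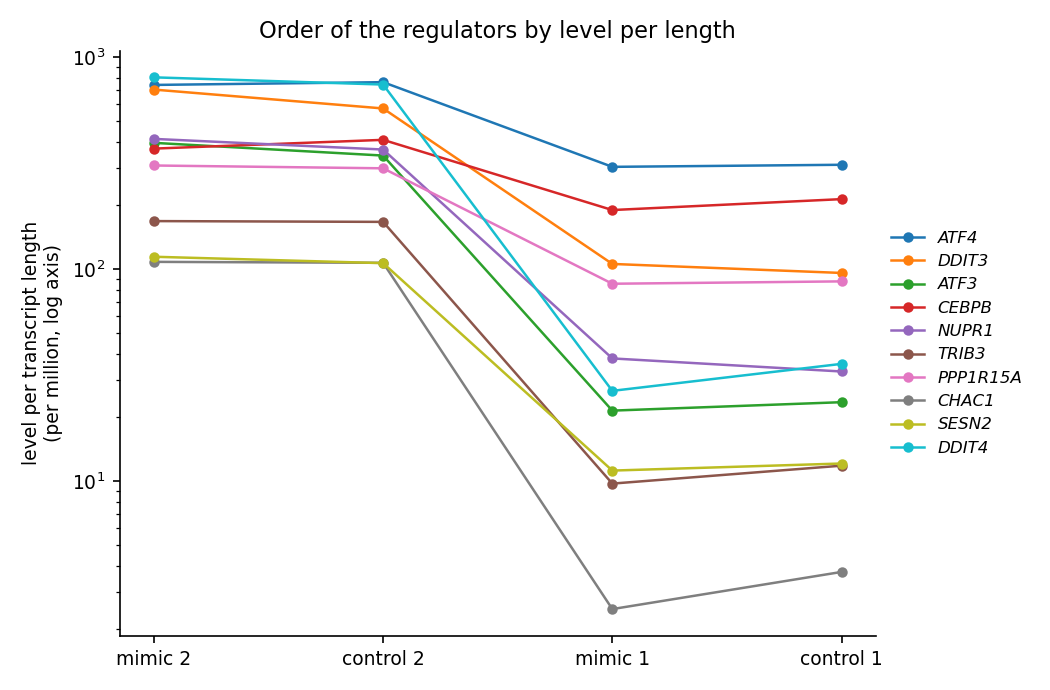
Level per transcript length of each regulator, scaled to the same total in every library, on a log axis, with 1 line per gene across the libraries mimic 2, control 2, mimic 1 and control 1. In number 2 the genes lie between 107 and 804, and in number 1 between 2.49 and 311, with ATF4 and CEBPB on top there.

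Most genes were carried by a single transcript. Of the 32 transcripts, 26 are annotated as protein-coding, 3 as retaining an intron, 2 as subject to nonsense-mediated decay and 1 as a processed transcript. SESN2 and CEBPB have 1 transcript each in the table. DDIT4-201 held 98.2% of DDIT4 in mimic 2 and 98.5% in control 2, against 97.9% in mimic 1 and 97.6% in control 1, and the leading transcripts of TRIB3 and PPP1R15A held at least 95.1% in every library. CHAC1-204, which starts 33 bases before the RefSeq start used above, held 96.5% in mimic 2 and 94.0% in control 2, against 100% in mimic 1 and 90.9% in control 1. CHAC1-203 held 2.28% in mimic 2 and 5.45% in control 2 and was at 0 in mimic 1 and control 1, while CHAC1-201 held 9.09% in control 1 and at most 1.18% in the other libraries.

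Among the minor transcripts, ATF4-201 went against its gene, and some others differed in share between the numbers. ATF4-201, in which an intron of the leading ATF4-202 is part of the first exon, had 200.5 in mimic 2 and 358 in control 2, against 468 in mimic 1 and 482 in control 1. It was thus lower in number 2 while ATF4-202, at 16773 in mimic 2 and 17508 in control 2, against 6318 in mimic 1 and 6701 in control 1, was higher. The share of ATF4-201 in the gene was 1.18% in mimic 2 and 1.99% in control 2, against 6.84% in mimic 1 and 6.62% in control 1. DDIT3-205, which also keeps an intron that the leading DDIT3-201 lacks, held 7.32% of DDIT3 in mimic 2 and 9.28% in control 2, against 19.3% in mimic 1 and 20.9% in control 1. Its value was still higher in number 2, at 755 in mimic 2 and 796 in control 2, against 288 in mimic 1 and 295 in control 1. DDIT3-202 held 11.1% in mimic 2 and 11.9% in control 2, against 13.2% in mimic 1 and 9.43% in control 1, so its share did not separate the numbers.

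In ATF3 the leading ATF3-202 held 84.9% to 90.7% in the 4 libraries. The short ATF3-210, which starts within the second exon of ATF3-202, had 455 in mimic 2 and 323 in control 2, against 2.71 in mimic 1 and 0 in control 1. ATF3-208, which retains an intron, held 3.38% in mimic 2 and 3.73% in control 2, against 5.09% in mimic 1 and 7.06% in control 1. In value it was higher in number 2, at 390.2 in mimic 2 and 390.0 in control 2, against 33.3 in mimic 1 and 52.0 in control 1. In NUPR1 most reads were given to NUPR1-201, whose annotated length of 5491 bases is far above the 550 of NUPR1-202. Its share was 68.1% in mimic 2 and 70.2% in control 2, against 69.8% in mimic 1 and 73.9% in control 1, much the same in all libraries. NUPR1-203, annotated for nonsense-mediated decay, held 5.20% to 7.33%. Reads were divided among overlapping transcripts by estimation, so these shares were not tested.

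**Figure D4:**
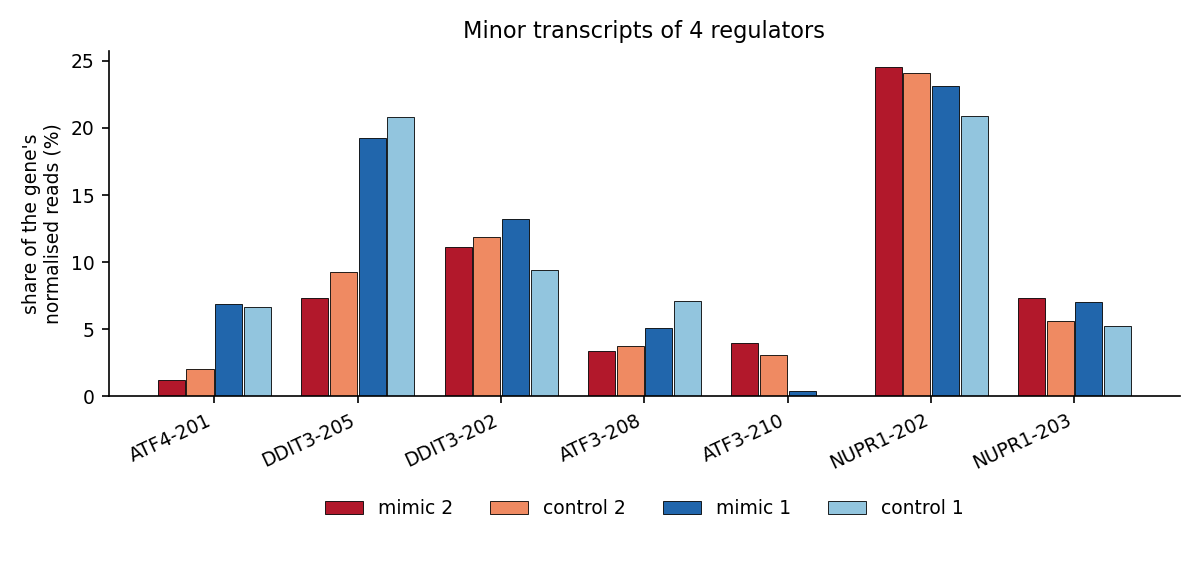
Share of a gene's normalised reads held by 7 minor transcripts of ATF4, DDIT3, ATF3 and NUPR1, in percent, with 1 bar per library (red and orange for number 2, dark and light blue for number 1). ATF4-201 and DDIT3-205 hold larger shares in number 1, while NUPR1-202 and NUPR1-203 hold similar shares in all libraries.

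Genes that ATF4 is known to drive, other than these 10, were set beside them. Of 40 such genes 39 could be tested, and 37 were called higher in number 2, 0 were called lower and 2 were not called. Over all 16523 genes tested, 4294 (26.0%) were called higher in number 2 and 4004 lower. The median difference was 2.18, against 0.0078 over all genes. Among the 8 with the largest differences, asparagine synthetase, ASNS, had 17176 in mimic 2 and 18173 in control 2, against 914 in mimic 1 and 857 in control 1, and CTH, for cysteine synthesis, had 5659 in mimic 2 and 5482 in control 2, against 268 in mimic 1 and 256 in control 1. PCK2, the mitochondrial enzyme that makes phosphoenolpyruvate, differed by 3.74 ± 0.12, and SLC6A9, a glycine transporter, by 4.24 ± 0.23.

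Among secreted products, GDF15, a stress cytokine, differed by 4.24 ± 0.13 and INHBE, an activin subunit, by 3.95 ± 0.33. ADM2, a peptide hormone gene, had 158 in mimic 2 and 151 in control 2 and was at 0 in both number 1 libraries, which makes it at least 49.5-fold higher against a floor of 3 reads per library. CBS, another cysteine synthesis gene, differed by 5.78 ± 0.63. It had 772 in mimic 2 and 577 in control 2, against 27.9 in mimic 1 and 4.16 in control 1. The size of that difference thus rests on a control 1 value near the floor. CBS also has a near-identical copy with which it can exchange reads. At the low end, XPOT, the tRNA export gene, rose by only 0.52 ± 0.08. ERO1A, an oxidase of the endoplasmic reticulum, differed by -0.16 ± 0.08 (adjusted p = 0.120), and CARS1 had only 13.5 to 31.4 in the matched transcripts. In the mimic against the control 0 of the 39 were called, with a median of -0.02, against -0.01 over all genes. That fit had no term for the number. In simulated counts with the gap between numbers it called 0 of 100 genes changed 4-fold, so the absence of calls is not informative.

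Close relatives of the 10 genes did not move as a block. Of 14 that could be tested, 9 were called higher in number 2 and 3 lower, with a median of 0.49. Among all 16523 genes, 4294 were called higher and 4004 lower. The relatives CEBPD (2.84 ± 0.14), JDP2 (2.19 ± 0.11), CEBPG (2.13 ± 0.09) and ATF5 (1.31 ± 0.11), all basic leucine zipper factors, were higher, and the last 3 are also on the ATF4 target list. ATF2 (0.45 ± 0.09) and ATF7 (0.44 ± 0.09) differed less.

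By contrast with TRIB3, its relatives were lower in number 2, TRIB1 at -0.30 ± 0.10 and TRIB2 at -0.53 ± 0.10. CHAC2 had 281 in mimic 2 and 280.2 in control 2, against 365 in mimic 1 and 279 in control 1, and was not called (-0.18 ± 0.16). The SESN2 relatives SESN1 (0.54 ± 0.12) and SESN3 (1.03 ± 0.21) rose less than SESN2 at 3.29, a gap that was not tested. PPP1R15B, the constitutive partner of PPP1R15A, differed by 1.18 ± 0.08. DDIT4L was not called (-0.19 ± 0.35), and FOS was lower (-0.68 ± 0.25, adjusted p = 0.0470).

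**Figure D5:**
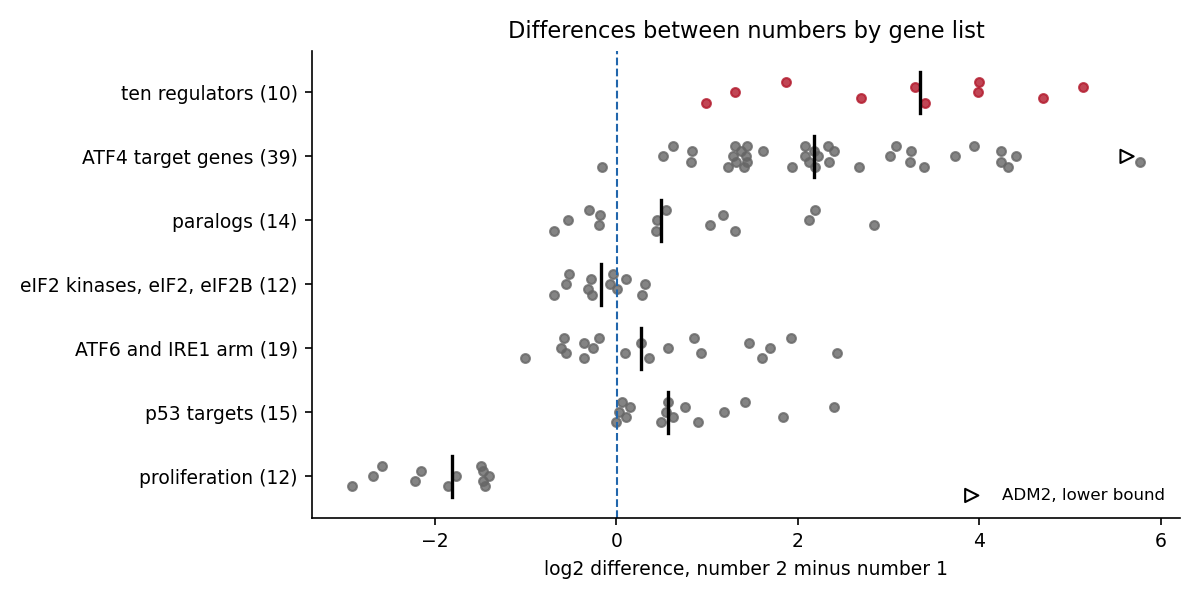
Log2 difference of number 2 minus number 1 for the 10 regulators and for 6 gene lists, 1 point per gene tested, with the median of each list as a black bar and the median of all genes, 0.0078, as a dashed line. The open triangle is ADM2 at its lower bound. The regulators have a median of 3.35, the ATF4 targets 2.18 and the proliferation genes -1.81.

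Upstream of ATF4, the kinase and eIF2 genes showed small differences in both directions. Of 12 genes of the kinases, eIF2 and eIF2B, 2 were called higher in number 2 and 6 lower, and all lay between -0.69 and 0.31. The calls over all 16523 genes were 4294 higher and 4004 lower. EIF2AK1, the haem-regulated kinase, was lower by -0.69 ± 0.08 and EIF2AK4, the amino acid sensing kinase GCN2, by -0.53 ± 0.08. EIF2AK2, the double-stranded RNA kinase PKR, and EIF2AK3, the kinase PERK of the endoplasmic reticulum, were not called (-0.07 ± 0.08 and 0.01 ± 0.19).

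The other branches of the unfolded protein response were divided. Of 19 genes of the ATF6 and IRE1 arms, 10 were called higher in number 2 and 7 lower, with a median of 0.27. Across all 16523 genes, 4294 were called higher and 4004 lower. ERN1, which encodes IRE1, differed by 2.43 ± 0.12 and XBP1, its splicing target, by 1.93 ± 0.07. Of 15 p53 target genes, a list that matters here because ATF3 and SESN2 also respond to p53, 10 were called higher and 0 lower, with a median of 0.57, and BTG2 (2.40 ± 0.20) and BBC3 (1.84 ± 0.13) differed most.

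Other features moved with the number as well, and their part in the differences of the regulators was not tested. All 12 proliferation genes were lower in number 2 (median -1.81), with RRM2, a nucleotide synthesis gene, at -2.92 ± 0.13 and MKI67 at -2.68 ± 0.08. Of 13 mitochondrially encoded genes 3 were lower and 10 not called (median -0.11). For comparison, 4294 of all 16523 genes were called higher in number 2 and 4004 lower. The glioma line markers VIM, CD44, NES, FN1, SPARC, TNC and CHI3L1 were all present, with a summed value of 266680.3 in mimic 2 and 281462 in control 2, against 417478 in mimic 1 and 457696 in control 1, while the astrocyte gene GFAP was at 12.5 to 29.7. Of the 7 glioma line markers, 5 were called lower in number 2, 1 higher and 1 not called. The genes CDKN2A, CDKN2B and MTAP, known to be deleted in this line, summed to 37.3 in mimic 2 and 58.3 in control 2, against 36.9 in mimic 1 and 33.3 in control 1. Markers of other cell types were also summed. Astrocyte markers (3 of 5, AQP4 and S100B without a row) summed to 263 in mimic 2 and 393 in control 2, against 976 in mimic 1 and 1062 in control 1. These 3 went different ways: 1 was called higher in number 2, 1 lower and 1 not called, between -1.90 and 3.09. Neuron markers (3 of 5 with a row, RBFOX3 and STMN2 without) summed to 1305 in mimic 2 and 1262 in control 2, against 1139 in mimic 1 and 1224 in control 1. Within that sum SNAP25 was lower in number 2 (-3.13 ± 0.14) and SYT1 higher (1.47 ± 0.10). Epithelial markers (3 of 5, KRT5 and GRHL2 without a row) summed to 215 in mimic 2 and 239 in control 2, against 72.9 in mimic 1 and 72.8 in control 1. Of these, ESRP1 was higher in number 2 (4.52 ± 0.49), EPCAM lower (-1.58 ± 0.38) and CDH1 not called (0.37 ± 0.46). Endothelial markers (5 of 5) summed to 227 in mimic 2 and 280.2 in control 2, against 543 in mimic 1 and 464 in control 1. Immune markers (3 of 5, CD3E and LST1 without a row) summed to 60.1 in mimic 2 and 60.5 in control 2, against 349 in mimic 1 and 449 in control 1. Oligodendrocyte markers (2 of 5, MOG, MAG and SOX10 without a row) summed to 18.1 in mimic 2 and 13.4 in control 2, against 15.3 in mimic 1 and 11.4 in control 1.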

How the data were processed

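For each of 4 libraries the authors deposited a normalised signal per transcript. Kallisto, DESeq2 and hg38 are named, per the submitters' processing notes; their versions and the annotation release are not given in the sources used here. From the values, the signal is estimated reads over a library factor, since 95.6% to 99.7% of a library's low values came out as whole reads (tolerance 0.1). The reads recovered in this way went into edgeR and DESeq2. The lowest row sum was 10 reads, so rarer transcripts were not analysed here.

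Of 100809 transcripts, 90627 matched GENCODE v29 (GRCh38) without version. The unmatched held 3.26% to 3.57% of a library's signal and were left out, so a gene can miss reads. Values were summed per gene. Genes with a mean of at least 10 were tested with limma with a trend on log2(value + 1), two-sided, adjusted by Benjamini-Hochberg over all 16523 genes at 0.05. Fold changes on this scale understate low genes. Mimic was compared with control, and number 2 with number 1, with no other term.

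The members and lists were chosen with earlier results of these data known. Beside the 10 genes, the text names, by a rule, the 8 ATF4 targets with the largest and the 3 with the smallest absolute difference between numbers, all relatives with a mean of at least 10, the 4 eIF2 kinases, and the 2 genes with the largest difference in the ATF6 and IRE1, p53 and proliferation lists, and transcripts with at least 5% of a gene. Other transcripts and marker genes named were chosen after their values were seen. Each test was tried on simulated counts. These were drawn independently for each library with 1 dispersion for all genes (0.00862), and only genes with a mean of at least 50 reads were changed. The false calls below therefore do not cover variation that libraries share. Number 2 against number 1 (16335 genes) called 93 of the 100 genes given a 2-fold change, 100 of those given a 4-fold change, and 0 falsely. Mimic against control called 97 and 100 of these, and 1 falsely, with no gap between numbers (16350 genes), but 0 and 0 with the gap (16397 genes), and 0 falsely. R 4.3.3, limma 3.58.1, edgeR 4.0.16, DESeq2 1.42.0, Python 3.11.15, numpy 2.4.6, pandas 2.3.3 and matplotlib 3.10.9 were used.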

Additional observations from a re-analysis of the deposited data

How the results depend on the processing

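Alternatives were pseudocounts of 0.5 and 5, no filter, a mean of at least 50, TMM scaling, edgeR and DESeq2 on recovered reads, protein-coding transcripts alone, the leading transcript alone (for the regulators), the other label as a term, and each library left out. The difference between numbers of the 10 regulators kept its direction and its call in all 110 values run for them, with adjusted p up to 0.00673. The count of genes called between numbers was 5160 to 7941 with a library left out. The mimic against the control gave 0 genes in every fit except the replicate block, which called 117 genes (55 higher, 62 lower) and 0 regulators. In that limma fit, which took each gene's variance from the trend over genes, 3 regulators were under 0.05 before adjustment, all lower in the mimic: CEBPB (-0.20, adjusted p = 0.718), DDIT4 (-0.20, adjusted p = 0.773) and CHAC1 (-0.29, adjusted p = 0.804). Deviations from the group means correlated within a number (r = 0.745 over genes), yet the labels give no shared origin and there are only 2 pairs, so no pairing was assumed.

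Mimic minus control, at no adjusted p under 0.05 in any fit, changed sign for ATF3 (0.13 with edgeR, 0.13 with DESeq2, 0.022 with the leading transcript), CHAC1 (0.010 with edgeR, 0.0070 with DESeq2), SESN2 (0.056 with edgeR, 0.053 with DESeq2), DDIT4 (0.065 with edgeR, 0.062 with DESeq2) and NUPR1 (-0.027 with the leading transcript); the cause was not tested. With a library left out it ran from -0.74 to 0.58 for ATF4, -1.22 to 1.57 for DDIT3, -2.08 to 2.06 for ATF3, -2.24 to 1.91 for TRIB3, -3.01 to 2.44 for CHAC1, -1.75 to 1.66 for SESN2, -2.68 to 2.29 for DDIT4, -1.0 to 0.92 for PPP1R15A, -0.71 to 0.31 for CEBPB and -1.69 to 1.76 for NUPR1, since each such fit leaves a group with a single number, its lone library being assumed to vary like the other group. Depth limits CHAC1 most, with 67 reads in mimic 1.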
